A study of Mus musculus with 6 samples.

Results

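A set of 8 cholesterol synthesis genes was followed in RNA labelled as aorta, from mice treated with angiotensin II, written Ang II, the effector peptide of the renin-angiotensin system, which constricts arteries and is used to provoke thickening of their walls. They were taken by name: Hmgcs1, Idi1, Fdps, Fdft1, Sqle, Lss and Cyp51, which encode enzymes, and Srebf2, which encodes the transcription factor of the pathway. They are 8 of the 33919 genes in the deposited table, and all 8 passed the filter on low counts. The series holds 6 libraries of poly(A) RNA: 3 labelled KO, from mice given Ang II, and 3 labelled WT, from wild-type mice given Ang II. The title of the series names endothelial OTUD1 and SMAD3, the labels do not say which gene was knocked out, and the comparison asked how the genotypes differ under Ang II. The labels give neither the allele, the strain, the age of the mice, the dose and duration of Ang II, nor any group without Ang II. The series' design text speaks of 3 mice per group, but no label ties a library to an animal. The p-values below therefore set the difference between labels against the spread between these libraries, not between known animals.

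Cells make cholesterol from acetyl-CoA through mevalonate, farnesyl diphosphate, squalene and lanosterol. Farnesyl diphosphate also feeds dolichol, ubiquinone and protein prenylation. When sterols in the endoplasmic reticulum run low, SREBP-2, the product of Srebf2, is carried to the Golgi, cleaved there and moved to the nucleus, where it raises transcription of the enzymes of the pathway. When sterols are plentiful, INSIG proteins hold SREBP-2 back, and oxysterols activate LXR, which raises efflux genes. In the vessel wall these routes operate in smooth muscle cells, endothelial cells and macrophages.

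Several facts of the libraries touch what follows. Total counts were 65292876 to 71525109 in the libraries labelled KO and 62335027 to 70494899 in those labelled WT, of which mitochondrial genes took 50.5% to 53.3% where labelled KO and 55.7% to 57.8% where labelled WT. Otud1 itself had 1033, 1141 and 1223 counts in the libraries labelled KO and 593, 699 and 615 in those labelled WT. It was thus 1.55-fold higher where the label says KO (edgeR adjusted p = 0.00388). If Otud1 is the gene knocked out, which the labels do not say, this is the reverse of a loss of its transcript in the whole tissue. The labels do not say whether the allele removes the transcript or in which cells, and the cause was not tested. Every direction below is that of the label alone. Of the counts between 1 and 40, 33.0% to 34.9% per library were multiples of 4, above an even spread, and the origin of that step was not tested. In bulk tissue, fewer cells of a type and less RNA per cell cannot be told apart.

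The promoters of Hmgcs1, Cyp51 and Srebf2 are shown because each holds the core of a sterol regulatory element, the DNA sequence that SREBP proteins bind. RefSeq (GRCm38.p6) gave a window from 250 bases before to 50 bases after the start site for 5 of the 8 genes, the other 2 being those of Lss and Idi1. The windows lie at chr13:119690101-119690400 on the plus strand for Hmgcs1, chr5:4104648-4104947 on the minus strand for Cyp51 and chr15:82147019-82147318 on the plus strand for Srebf2. Capitals mark the sterol regulatory element core (TCACCNCA, or TGNGGTGA on the other strand) and the CCAAT box of NF-Y (CCAAT or ATTGG), a factor that acts beside SREBP.
Hmgcs1: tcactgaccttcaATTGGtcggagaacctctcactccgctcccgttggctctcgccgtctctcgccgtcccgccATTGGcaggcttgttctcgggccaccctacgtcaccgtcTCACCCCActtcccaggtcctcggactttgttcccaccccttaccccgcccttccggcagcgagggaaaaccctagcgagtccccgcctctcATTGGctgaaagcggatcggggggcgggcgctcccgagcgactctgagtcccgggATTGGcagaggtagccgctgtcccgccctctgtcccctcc
Cyp51: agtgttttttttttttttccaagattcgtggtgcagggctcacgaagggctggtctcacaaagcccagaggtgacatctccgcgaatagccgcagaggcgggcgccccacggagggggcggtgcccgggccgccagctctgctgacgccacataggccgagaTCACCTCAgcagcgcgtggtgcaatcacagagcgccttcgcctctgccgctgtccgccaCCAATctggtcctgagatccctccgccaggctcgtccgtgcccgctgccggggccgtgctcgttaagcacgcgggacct
Srebf2: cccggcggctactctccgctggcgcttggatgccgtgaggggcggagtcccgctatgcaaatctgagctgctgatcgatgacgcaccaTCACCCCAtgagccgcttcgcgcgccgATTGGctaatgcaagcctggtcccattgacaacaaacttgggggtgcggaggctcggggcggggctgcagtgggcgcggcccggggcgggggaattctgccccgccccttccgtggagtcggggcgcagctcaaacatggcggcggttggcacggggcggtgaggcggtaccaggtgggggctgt
The core began at position -137 from the start site in Hmgcs1, -88 in Cyp51 and -162 in Srebf2. It was present in 3 of the 5 windows and in 4.42% of all 32851 promoter windows of the table, the letters having been chosen with these sequences in view. The CCAAT box was present in 5 of 5 windows, against 37.4% of all windows, and the GC box of Sp1 (GGGCGG or CCGCCC, not capitalised) in 5 of 5, against 35.7%. No match overlapped another. A match describes the letters only and is not evidence of binding in these libraries.

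The 8 genes did not move as a block. In the libraries labelled KO, Fdps and Fdft1, the neighbouring steps that make farnesyl diphosphate and join it into squalene, were 1.80-fold and 1.43-fold higher, while Hmgcs1 and Cyp51 were 1.47-fold and 1.64-fold lower. Idi1, Sqle, Lss and Srebf2 did not pass the test. Counts were tested across 16620 genes with edgeR's quasi-likelihood F-test and an adjusted p of 0.05 over all of them. By that rule 2 of the 8 genes were higher, where 11.5% of all genes tested were, and 2 were lower, where 10.5% were. In either direction this is 4 of 8, beside 22.0% of all genes (1907 higher and 1751 lower). With limma on log2(FPKM + 1), which centres the libraries differently, the split over all genes was 2753 higher and 778 lower. In TMM-scaled CPM the groups did not overlap in 5 of the 8 genes, 2 higher and 3 lower in the libraries labelled KO. Over all genes this share was 38.6% (19.3% higher and 19.4% lower). One of the 5, Idi1, did overlap in FPKM. The median log2 fold change of the 8 was -0.35, beside -0.02 over all genes tested.

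**Figure D1:**
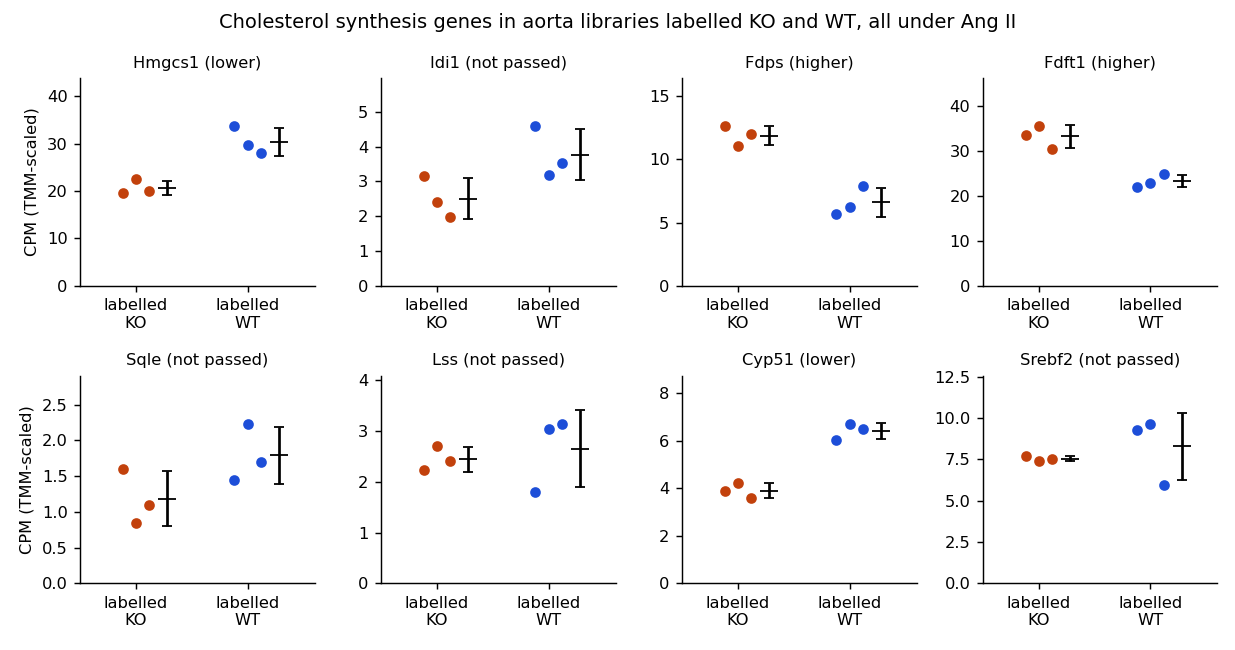
Expression of each gene, as CPM after TMM scaling, in every library, libraries labelled KO on the left and WT on the right of each panel; points are libraries, and the bar and whiskers beside them are the mean and SD of 3 libraries. Axes start at 0 and differ between panels, and the words over each panel give the edgeR call; the Fdps libraries labelled KO lie at 11.1 to 12.6 CPM, all above the 5.66 to 7.86 CPM of those labelled WT.

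Hmgcs1 encodes cytosolic HMG-CoA synthase, which makes the substrate of the rate-limiting step (ENSMUSG00000093930, chromosome 13, 119690379 to 119708260, plus strand; here and below the deposited positions, which equal those of GENCODE M21 on GRCm38 for all 8 genes). It had 1393, 1640 and 1445 counts in the libraries labelled KO, against 2261, 1781 and 1751 in those labelled WT. After scaling, all 3 libraries labelled KO lay below all 3 labelled WT, at 20.6 ± 1.57 CPM against 30.4 ± 2.93 CPM (SD, n = 3 each). The log2 fold change was -0.56 (SE 0.10, edgeR adjusted p = 0.00185). The calls of Hmgcs1, Fdps, Fdft1 and Cyp51 held without each library in turn, and the log2 fold change of Hmgcs1 then lay between -0.62 and -0.48.

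Idi1 encodes the isomerase that converts isopentenyl diphosphate into dimethylallyl diphosphate (ENSMUSG00000058258, chromosome 13, 8885501 to 8892451, plus strand). Its CPM were 3.15, 2.39 and 1.97 in the libraries labelled KO, against 4.59, 3.19 and 3.53 in those labelled WT. In CPM the groups did not overlap, but the lowest library labelled WT lay close to the highest labelled KO. In FPKM they overlapped, with 0.887 in the first library labelled KO and 0.748 in the second labelled WT. With a log2 fold change of -0.59 (95% interval -1.14 to -0.04) Idi1 did not pass the edgeR test after adjustment (adjusted p = 0.12), nor in any of 16 alternatives. Processed pseudogenes carry near copies of this transcript. One of them, Gm13502, shares 684 bases at 100% identity, and was assigned 14, 19 and 26 counts in the libraries labelled KO, against 25, 5 and 9 in those labelled WT. The split of reads between Idi1 and its copies is therefore uncertain.

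Fdps, which encodes farnesyl diphosphate synthase, the branch point to sterols and other isoprenoids, was higher in the libraries labelled KO (ENSMUSG00000059743, chromosome 3, 89093588 to 89101959, minus strand). It had 899, 808 and 871 counts in the libraries labelled KO, against 380, 376 and 492 in those labelled WT. The lowest library labelled KO stood well above the highest labelled WT. In CPM the means were 11.9 ± 0.79 in the libraries labelled KO and 6.59 ± 1.14 in those labelled WT (SD, n = 3 each), a log2 fold change of 0.85 (SE 0.14, edgeR adjusted p = 0.00147). Fdps also has processed pseudogenes. Gm3571, at 98.9% identity over 1062 bases, had 104, 79 and 104 counts in the libraries labelled KO, against 105, 85 and 78 in those labelled WT, with no call by edgeR (log2 fold change -0.09, adjusted p = 0.89). Gm5873, at 96.7% identity over 1066 bases, had 63, 62 and 30 counts in the libraries labelled KO, against 27, 28 and 10 in those labelled WT (log2 fold change 1.06, edgeR adjusted p = 0.30). Both had fewer counts than Fdps in every library. Fdps also overlaps the annotated gene Gm43738 on the same strand over 7512 bases, and their transcripts share 929 bases at 100% identity. The authors' table has no entry for Gm43738, so how reads of that stretch were assigned is not known.

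Fdft1 encodes squalene synthase, the first enzyme committed to sterols (ENSMUSG00000021273, chromosome 14, 63145150 to 63179578, minus strand). It had 2394, 2591 and 2214 counts in the libraries labelled KO, against 1480, 1379 and 1550 in those labelled WT. All 3 libraries labelled KO were above all 3 labelled WT, at 33.2 ± 2.50 CPM against 23.3 ± 1.39 CPM (SD, n = 3 each). The log2 fold change was 0.51 (SE 0.09, edgeR adjusted p = 0.00161). A 774-base stretch of Fdft1 overlaps Ctsb on the opposite strand, the gene of the lysosomal protease cathepsin B. Ctsb had 6.07 to 6.82 times the counts of Fdft1 in the libraries labelled KO and 7.23 to 8.06 times in those labelled WT. Ctsb was itself higher in the libraries labelled KO, with a log2 fold change of 0.26 (edgeR adjusted p = 0.00092). The sources used here do not say whether counting used strand, so reads of the 2 genes in that stretch cannot be told apart, and the part of Ctsb in the change of Fdft1 was not tested. The FPKM of Fdft1 relative to Ctsb was 0.228 ± 0.013 in the libraries labelled KO and 0.191 ± 0.011 in those labelled WT (SD, n = 3 each), with no overlap between the groups.

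Sqle encodes squalene epoxidase, the first oxygen-dependent step and a point of control of the pathway (ENSMUSG00000022351, chromosome 15, 59315077 to 59331192, plus strand). It was the least counted of the 8, with 114, 62 and 80 counts in the libraries labelled KO, against 97, 134 and 106 in those labelled WT. The groups overlapped. Its log2 fold change was -0.60, with a 95% interval of -1.39 to 0.20 (edgeR adjusted p = 0.29), so neither a fall larger than that of Cyp51 nor a small rise lies outside it. Lss encodes lanosterol synthase, which closes the sterol rings (ENSMUSG00000033105, chromosome 10, 76531588 to 76557138, plus strand). It had 158, 197 and 174 counts in the libraries labelled KO, against 120, 182 and 196 in those labelled WT, and the first library labelled WT stood below all others. Its log2 fold change was -0.12, with a 95% interval of -0.72 to 0.48 (edgeR adjusted p = 0.81), and the sign turned to 0.02 without the third library labelled WT. Lss overlaps the antisense gene 4930483K19Rik over 11268 bases, and the authors' table has no entry for that gene.

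Cyp51 encodes lanosterol 14-alpha-demethylase, the first enzyme after lanosterol (ENSMUSG00000001467, chromosome 5, 4081145 to 4104746, minus strand). Its counts were 277, 308 and 262 in the libraries labelled KO, against 404, 403 and 407 in those labelled WT. Every library labelled KO lay well below every one labelled WT. The means were 3.90 ± 0.30 CPM in the libraries labelled KO and 6.41 ± 0.35 CPM in those labelled WT (SD, n = 3 each), and the log2 fold change was -0.71 (SE 0.15, edgeR adjusted p = 0.00685). Cyp51 shares 166 bases with Akap9, a scaffold protein gene on the opposite strand. Akap9 moved the other way, with a log2 fold change of 0.53 (edgeR adjusted p = 0.00834).

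Srebf2 encodes SREBP-2 and is itself a target of the factor (ENSMUSG00000022463, chromosome 15, 82147181 to 82205379, plus strand). It had 548, 541 and 548 counts in the libraries labelled KO, against 624, 580 and 373 in those labelled WT. The 3 libraries labelled KO were nearly equal and lay inside the range of those labelled WT, of which the third was the lowest of all 6. The log2 fold change was -0.14, with a 95% interval of -0.53 to 0.25 (edgeR adjusted p = 0.65). Without the third library labelled WT it was -0.33 (adjusted p = 0.11). The abundance of an mRNA says nothing of how much SREBP-2 protein was cleaved.

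FPKM, which by its name divides by gene length and library total, was used to set levels beside each other between genes. The formula and the lengths behind the deposited values are not stated, so the order below holds for FPKM only. In CPM, Lss had 2.44 and Sqle 1.18 on average where labelled KO. In the libraries labelled KO the order of the FPKM means was Fdft1 (7.69), Hmgcs1 (4.28), Fdps (2.69), Srebf2 (1.001), Cyp51 (0.84), Idi1 (0.682), Lss (0.213) and Sqle (0.202). Among neighbours in that order, Cyp51 and Idi1, and Lss and Sqle, overlapped between libraries. In those labelled WT it was Hmgcs1 (5.68), Fdft1 (4.86), Fdps (1.35), Cyp51 (1.25), Srebf2 (0.984), Idi1 (0.923), Sqle (0.272) and Lss (0.209). There Hmgcs1 and Fdft1, Fdps and Cyp51, Srebf2 and Idi1, and Sqle and Lss overlapped. Fdft1 and Hmgcs1 thus held the first places in FPKM under both labels, and Sqle and Lss the last.

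A ratio of 2 genes within a library does not depend on how libraries are scaled. The pairs below were chosen after the values were seen and are given without a test. The FPKM ratio of Fdft1 to Cyp51 was 9.31, 9.04 and 9.13 in the libraries labelled KO, against 3.93, 3.68 and 4.08 in those labelled WT. Among the 6 ratios plotted it had the smallest spread for its size, and the spread within each label was small beside the gap between them. The ratio of Fdps to Hmgcs1 was 0.703, 0.538 and 0.656 in the libraries labelled KO, against 0.183, 0.23 and 0.306 in those labelled WT, again without overlap. Pairs that moved the same way kept closer ratios. Hmgcs1 to Cyp51 was 5.10 ± 0.244 in the libraries labelled KO and 4.59 ± 0.691 in those labelled WT, and Fdps to Fdft1 was 0.351 ± 0.042 where labelled KO and 0.275 ± 0.031 where labelled WT (SD, n = 3 each), the libraries overlapping in both.

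**Figure D2:**
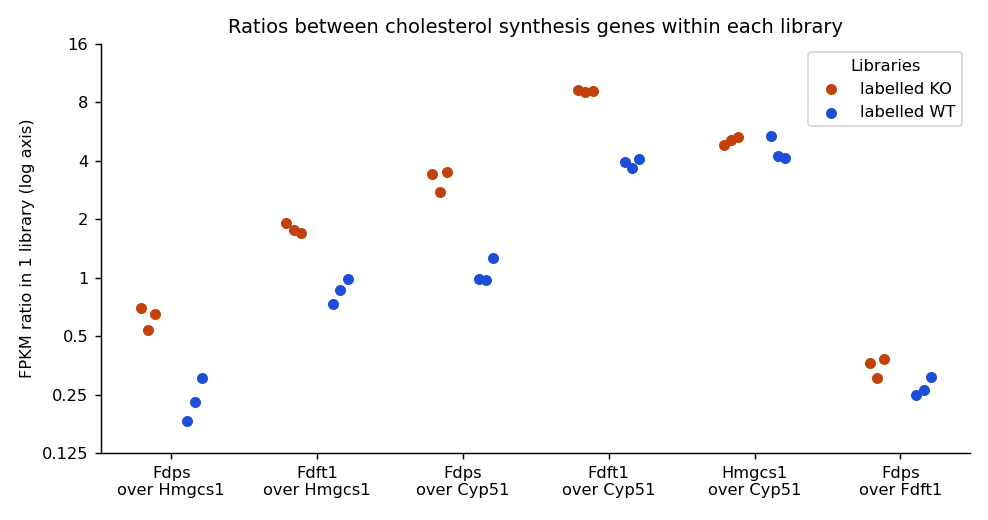
Ratio of FPKM between 2 genes in the same library, on a log axis; each point is a library, those labelled KO to the left of those labelled WT. The 4 ratios of Fdps or Fdft1 to Hmgcs1 or Cyp51 separate the labels, while Hmgcs1 over Cyp51 and Fdps over Fdft1 overlap.

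The other enzymes of the pathway were taken from a list of 15, of which 14 had counts enough to be tested. Idi2, the muscle isomerase, had no count in any library. Among the 14, 3 were lower in the libraries labelled KO and 0 higher, beside 10.5% and 11.5% of all genes. At an unadjusted p of 0.05, edgeR gave 1 higher and 3 lower, beside 5503 of all 16620 genes in either direction. DESeq2 called 1 higher and 3 lower after adjustment, beside 5266 of 20684 genes. The median log2 fold change of the list was -0.14. The 3 that passed act after lanosterol, as Cyp51 does. Msmo1, the sterol C4-methyl oxidase, had 2.78 CPM in the libraries labelled KO and 4.30 CPM in those labelled WT on average (log2 fold change -0.63, edgeR adjusted p = 0.0389). Sc5d, the lathosterol desaturase, had 356, 338 and 359 counts in the libraries labelled KO, against 509, 403 and 383 in those labelled WT (log2 fold change -0.49, edgeR adjusted p = 0.0383). Hsd17b7, a 3-ketosteroid reductase, had few counts, 9, 31 and 16 in the libraries labelled KO, against 39, 51 and 119 in those labelled WT (log2 fold change -2.10, 95% interval -3.59 to -0.62, edgeR adjusted p = 0.0466). These 3 calls were fragile. Msmo1 was called in 0 of the 6 fits that left out a library (adjusted p 0.0566 to 0.116), Sc5d in 1, without the third library labelled WT (0.0366 to 0.138 over the 6), and Hsd17b7 in 2, without the second labelled KO or the first labelled WT (0.039 to 0.247).

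Of the named enzymes that act before Idi1, Hmgcs1 alone was called. Acat2, the thiolase of the first step, had a log2 fold change of 0.01, with a 95% interval of -0.23 to 0.24. Mvk (0.19) and Mvd (0.13), the mevalonate kinase and decarboxylase, did not pass either. Pmvk, the phosphomevalonate kinase, came nearest, at 11.96 CPM in the libraries labelled KO and 9.13 CPM in those labelled WT (log2 fold change 0.39, edgeR adjusted p = 0.0643).

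**Figure D3:**
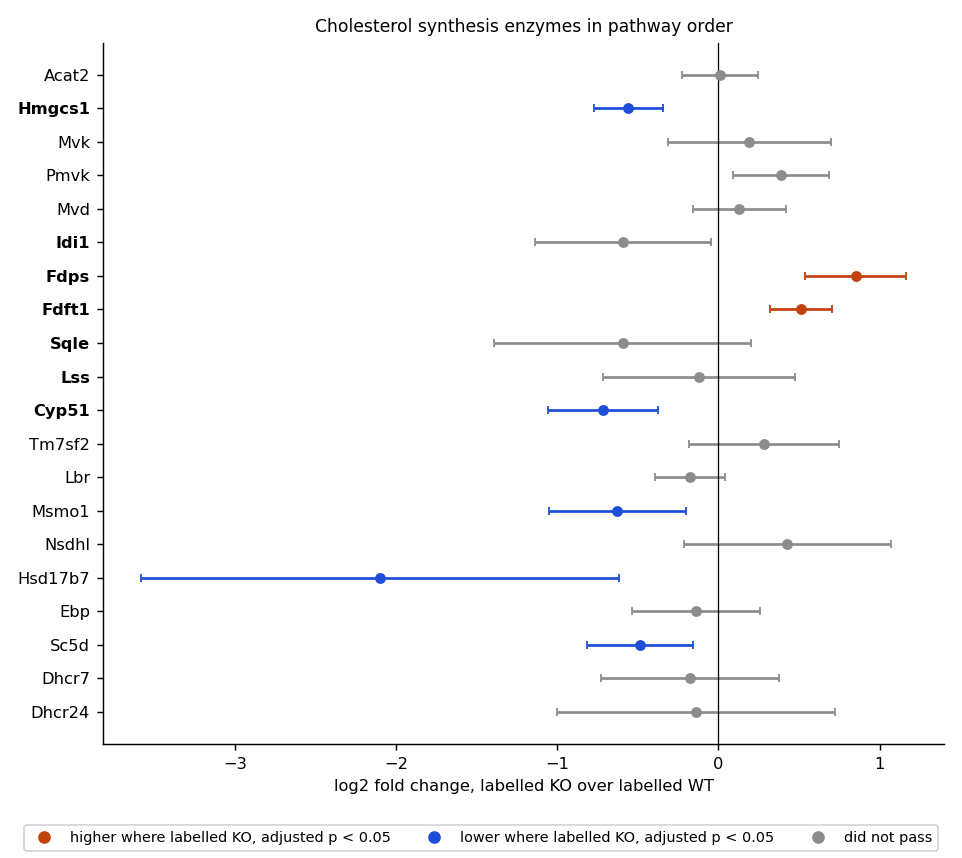
Log2 fold change, libraries labelled KO over those labelled WT, of cholesterol synthesis enzymes from the first step at the top to the last at the bottom; points are edgeR estimates from 3 libraries each, whiskers their 95% intervals, and names in bold are the 7 enzymes described first. Fdps and Fdft1 are the called steps to the right of 0, between lower or uncalled steps on both sides. The intervals of Pmvk (0.09 to 0.69) and Idi1 (-1.14 to -0.04) are also clear of 0, but neither passed after adjustment. Of the tested enzymes, 1 is not shown.

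Of 9 genes that make or control SREBP proteins, 2 were higher, 1 was lower and 6 did not pass, beside 11.5% higher and 10.5% lower of all genes, so the share called was near that of all genes. Insig1, which retains the SREBP complex in the endoplasmic reticulum and is a sterol-repressed target itself, had 598, 744 and 623 counts in the libraries labelled KO, against 816, 804 and 1039 in those labelled WT. The log2 fold change of Insig1 was -0.63 (SE 0.14, edgeR adjusted p = 0.0076), and that of its relative Insig2 was 0.05 (95% interval -0.32 to 0.43). Srebf1, which encodes the SREBP-1 proteins of fatty acid synthesis, was higher, with 1723, 1862 and 1780 counts in the libraries labelled KO, against 1156, 1066 and 1219 in those labelled WT (log2 fold change 0.45, edgeR adjusted p = 0.00369). Rnf139, a ubiquitin ligase of the endoplasmic reticulum, was higher by 0.49 (edgeR adjusted p = 0.0285). That call was lost without the first library labelled KO (adjusted p = 0.121) and without the first or second labelled WT (0.065 and 0.095). The escort Scap (0.23) and the proteases Mbtps1 (0.12) and Mbtps2 (0.09) did not pass.

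Among 13 tested genes of cholesterol uptake, lysosomal release and transfer, 4 were higher in the libraries labelled KO, 3 were lower and 6 did not pass, beside 11.5% higher and 10.5% lower of all genes. Stard4, a sterol carrier whose transcription SREBP-2 raises, had 262, 335 and 325 counts in the libraries labelled KO, against 561, 430 and 486 in those labelled WT. Its log2 fold change was -0.87 (SE 0.15, edgeR adjusted p = 0.00208). Mylip, an LXR-induced ubiquitin ligase that sends lipoprotein receptors to degradation, was higher by 0.51 on the log2 scale (edgeR adjusted p = 0.00445). Also higher were Vldlr (0.43), a receptor for triglyceride-rich lipoproteins, and Gramd1a (0.39) and Gramd1b (0.72), which carry cholesterol from the plasma membrane to the endoplasmic reticulum. Npc2, which hands cholesterol out of the lysosome, was lower by a log2 fold change of -0.30 (edgeR adjusted p = 0.00725).

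**Figure D4:**
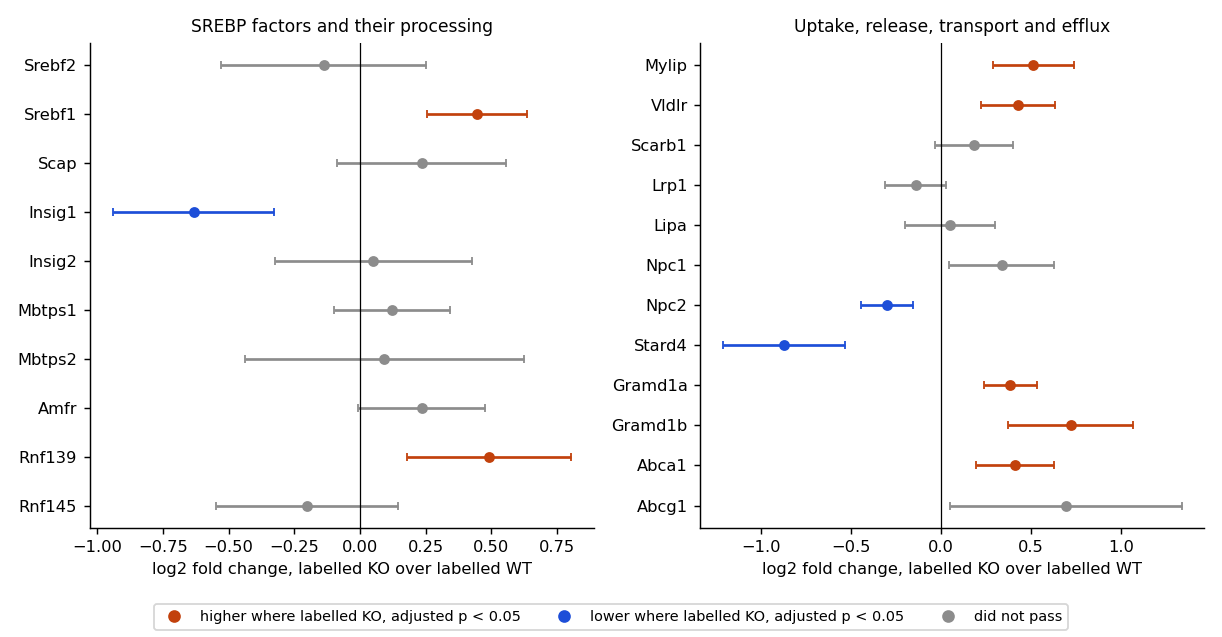
Log2 fold change, libraries labelled KO over those labelled WT, with 95% intervals from edgeR (3 libraries each), of the SREBP factors and the genes that process them (left) and of genes of cholesterol uptake, release, transport and efflux (right, where some tested genes are not shown). Insig1 at -0.63 and Stard4 at -0.87 lie left of 0, and Srebf1 at 0.45, Mylip at 0.51 and Gramd1b at 0.72 lie right of it.

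Of 12 tested genes of LXR, efflux, esterification and oxysterols, 3 were higher and 0 lower, beside 11.5% and 10.5% of all genes. At an unadjusted p of 0.05 edgeR gave 5 higher and 1 lower, beside 5503 of all 16620 genes in either direction. DESeq2 called 5 higher and 1 lower, beside 5266 of 20684 genes. Cyp27a1, the mitochondrial sterol 27-hydroxylase, rose to 27.6 CPM in the libraries labelled KO, against 16.6 CPM in those labelled WT (log2 fold change 0.74, edgeR adjusted p = 0.00192). Abca1, the exporter of cholesterol to apolipoprotein A-I, was higher by 0.41 (edgeR adjusted p = 0.0113), although without the first library labelled KO its adjusted p stood at 0.05. Osbpl1a, an oxysterol-binding protein, was higher by 0.34 (edgeR adjusted p = 0.0442), a call that held in 1 of the 6 fits that left out a library, that without the first labelled KO (adjusted p 0.03 to 0.168). Another exporter, Abcg1, had 5.46 CPM in the libraries labelled KO and 3.37 CPM in those labelled WT. Its groups overlapped and it did not pass (edgeR adjusted p = 0.12). Apoe and Soat1 went the other way and did not pass either. Apoe, the most counted gene of the list, had 267 CPM where labelled KO and 289 CPM where labelled WT (log2 fold change -0.11, edgeR adjusted p = 0.0622). Soat1 had few counts (log2 fold change -0.78, edgeR adjusted p = 0.164). Over the 12 genes, 10 log2 fold changes were positive and 2 negative. In CPM the groups did not overlap in 3 genes higher and 2 lower where labelled KO, beside 19.3% and 19.4% of all genes.

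In the isoprenoid branch, which draws on the product of Fdps, 1 of 13 genes was lower and 0 were higher, beside 10.5% and 11.5% of all genes, so fewer were called than the 22.0% of all genes in either direction. The edgeR test gave 3 lower and 2 higher at an unadjusted p of 0.05, beside 5503 of all 16620 genes in either direction. DESeq2 called 2 lower and 1 higher, beside 5266 of 20684 genes. The gene that passed was Nus1, a subunit of the dolichol-forming prenyltransferase, at 20.5 CPM in the libraries labelled KO and 28.3 CPM in those labelled WT (log2 fold change -0.47, edgeR adjusted p = 0.00291). Ggps1, which extends farnesyl to geranylgeranyl diphosphate, had a log2 fold change of -0.39 (edgeR adjusted p = 0.0762).

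Fatty acid synthesis genes are driven by SREBP-1 and ChREBP. Of 16 tested, 10 were higher and 4 lower in the libraries labelled KO, beside 11.5% and 10.5% of all genes, with a median log2 fold change of 0.63. Fasn, Acaca, Acacb, Acly, Me1 and Elovl6, the 6 with the smallest p, had log2 fold changes of 1.004 to 1.98. Fads1 and Fads2, the desaturases of polyunsaturated fatty acids, were lower, at -1.36 each. Scd1, the stearoyl-CoA desaturase, was lower at -0.42 (edgeR adjusted p = 0.000286), and was called in each fit that left out a library. Its paralog Scd2 was lower at -0.31 (edgeR adjusted p = 0.0461), a call that held in 1 of those 6 fits, that without the third library labelled WT (adjusted p 0.0478 to 0.155).

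Markers of cell types of the vessel wall and of other tissues moved as well, and their part in the values above was not tested. The edgeR calls counted below stand beside 11.5% higher and 10.5% lower of all genes. Transcripts of smooth muscle, the main cell of the labelled tissue, were present in all 6 libraries, as were those of skeletal muscle and brown fat. The summed CPM of 9 smooth muscle markers, led by Acta2 and Tagln, was 178 to 182 in the libraries labelled KO and 548 to 556 in those labelled WT, with 8 lower. That of 8 fibroblast markers, led by Dcn and Col3a1, was 201 to 224 where labelled KO and 588 to 622 where labelled WT, with 8 lower. For 10 skeletal muscle fibre markers, led by Acta1 and Tnnc2, it was 29470 to 30420 where labelled KO and 22750 to 23350 where labelled WT, with 7 higher. The skeletal muscle sum was thus far above the smooth muscle sum in every library, although the tissue is labelled aorta. The source of these transcripts was not tested. Adipocyte markers, led by Fabp4 and Cfd, summed to 2792 to 2896 where labelled KO and 2911 to 2956 where labelled WT, with 4 of 9 higher and 3 lower, and brown adipocyte markers, led by Ucp1 and Cox8b, to 900 to 961 where labelled KO and 810 to 824 where labelled WT, with 3 of 8 higher and 2 lower. Among cell types known for high sterol synthesis or use, hepatocyte markers, led by Cyp2e1 and Alb, summed to 100 to 107 where labelled KO and 206 to 210 where labelled WT, with 7 of 9 tested lower, 1 higher and Cyp7a1, the rate-limiting enzyme of bile acid synthesis, at 0 in every library. Steroidogenic markers, led by Fdx1 and Star, summed to 12.4 to 15.1 where labelled KO and 25.5 to 28.7 where labelled WT, with 4 of 6 tested lower. Schwann cell and myelin markers, led by Pmp22 and Mbp, summed to 30.0 to 31.6 where labelled KO and 45.0 to 56.3 where labelled WT, with 3 of 7 tested lower. Sebaceous and skin markers, led by Krt79 and Krt10, summed to 2.11 to 3.10 where labelled KO and 3.04 to 4.78 where labelled WT, with 1 of 3 tested lower and Krt5 and Krt1 at 0 in every library. Macrophage markers, led by Lyz2 and C1qa, summed to 147 to 153 where labelled KO and 211 to 222 where labelled WT, with 5 of 9 lower, and endothelial markers, led by Egfl7 and Cdh5, to 622 to 627 where labelled KO and 658 to 675 where labelled WT, with 2 of 9 higher and 3 lower.

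The profile of the 8 genes over the 6 libraries, as their mean log2 CPM, ran at 2.69, 2.58 and 2.51 in the libraries labelled KO and at 2.69, 2.82 and 2.75 in those labelled WT. Lower and higher members offset each other in this mean. Of 7877 other genes with a mean of at least 5 CPM, those whose log2 CPM followed it most closely were Fam53b, Csnk1d, Fam20b, Taok1 and Cbl, with Pearson correlations of 0.993, 0.986, 0.982, 0.98 and 0.978 over the 6 libraries. These points share libraries and scaling, and the 5 genes were found by searching all of them.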

How the data were processed

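Per the labels' protocols, poly(A) RNA was made into 6 paired-end Illumina libraries; the same text speaks of adipose RNA, while the tissue is labelled aorta. The authors deposited 1 table of 33919 genes with whole-number gene counts, not normalized, and FPKM per the file headers. Tools listed in the submitters' processing notes, with no roles, are Bowtie 0.12.2 and HISAT2 2.0, and the build listed there is mm8. The deposited positions of the 8 genes equal GENCODE M21 on GRCm38. No source used here states the counting program, its use of strand or the FPKM formula.

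Genes were kept by filterByExpr, scaled by TMM and tested with edgeR 4.0.16 (R 4.3.3, quasi-likelihood F-test, genotype only, two-sided, Benjamini-Hochberg over 16620 genes). Standard errors were derived as the absolute log2 fold change over the square root of that test's F, and 95% intervals from them with a t quantile. Both are approximate and cover the spread between 3 libraries per label. CPM are TMM-scaled. Alternatives used DESeq2 1.42.0 and limma 3.58.1. Similar transcripts were found with blastn 2.17.0 (at least 85% identity over 200 bases). Figures were drawn with matplotlib 3.10.9. The edgeR code was tested on simulated data first.

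The 8 genes, the lists and the alternatives were chosen with earlier results of these data known. Named from each list were all genes past the threshold (6 at most), or the 2 with the smallest p. Acat2, Mvk, Mvd, Pmvk, Insig2, Scap, Mbtps1, Mbtps2 and Ggps1 were added after their values were seen. So were Abcg1, Apoe, Soat1, Soat2, Ch25h, Fads1, Fads2, Scd1, Scd2, Ctsb, Akap9 and the pseudogenes. From each marker list the 2 with the highest mean CPM and defining markers with no count are named, and by likeness the 5 genes with the highest correlation. Some genes of these lists are not reported here.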

Additional observations from a re-analysis of the deposited data

How the results depend on the processing

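The 4 calls among the 8 genes kept their direction in every alternative run that tested them. The count was 4 in all of them, the fits without each library included, except that limma on log2(FPKM + 1) with no filter on low values gave 2 (Fdps and Fdft1; Hmgcs1 and Cyp51 had adjusted p = 0.0515 and 0.0553), and a fold change of at least 1.5 beside the adjusted p left 2 (Fdps and Cyp51), as it left 1921 of 3658 calls over all genes. The other limma fits tested 5 of the 8 genes. Of the uncalled genes, Lss had a log2 fold change between -0.34 and 0.021 without each library in turn, the highest without the third labelled WT, and 0.0059 in limma with no filter. Srebf2 turned to 0.017 in limma on log2(FPKM + 1), with or without the filter, and to 0.0396 with a pseudocount of 0.1; the median of all genes stood at 0.15 and 0.205 in the filtered fits, and with median-ratio scaling of FPKM, which set that median near 0, Srebf2 was at -0.09. In limma on FPKM the calls over all genes were 2753 higher and 778 lower, against 1907 and 1751 in edgeR. The cause of these turns was not tested.

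The 3 calls among the other 14 enzymes depended on the setting. The count was 0 without the low-count filter and 0 with the replicate block. At an unadjusted p of 0.05 it was 4 in both, beside 5990 of 28428 genes without the filter and 5231 of 16620 with the block. Without each library the adjusted count was 0 to 2, where 1 call was in the higher direction without the second library labelled KO and 1 without the second labelled WT. It was 1 in limma on FPKM with a pseudocount of 1 or 0.1 and with no filter, each time a higher gene and so none of the 3, and 1 with median-ratio scaling, a lower one (Sc5d). Same-numbered libraries did not vary together (correlations of their deviations from the group means 0.024, -0.0086 and 0.018), so the replicate number was treated only as an alternative. With this block the 8 genes kept 4 calls and all genes gave 3255, while Msmo1, Sc5d and Hsd17b7 were no longer called (adjusted p = 0.0632, 0.0678 and 0.0672). Counting depth limits Sqle most, with 62 to 134 counts per library.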
